A study of Mus musculus with 6 samples.

Results

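The genes described here are the conjugating enzymes of phase II drug and steroid metabolism. They are the UDP-glucuronosyltransferases (Ugt1a, Ugt2 and Ugt3 genes), the cytosolic sulfotransferases (Sult) and the glutathione S-transferases. The last are grouped here as cytosolic (Gsta, Gstk, Gstm, Gsto, Gstp, Gstt, Gstz) and microsomal (Mgst). Gstk1 is counted with the cytosolic group, although its enzyme lies in mitochondria and peroxisomes. All these genes were picked by the start of the gene symbol in the deposited table, leaving out symbols that end in -ps. That gave 75 of 54012 listed genes: 9 Ugt1a, 10 Ugt2, 2 Ugt3, 27 Sult, 24 cytosolic Gst and 3 Mgst genes. Among them, 7 carry numbered pseudogene symbols such as Sult2a-ps1 and are listed at 0 in every library. The measurements are RNA sequencing of total RNA from small intestine, with 3 mice of the genotype labelled TLR4ΔIEC and 3 labelled wild type (WT), all 8 to 12 weeks old. Per the series title, the study asked what depletion of TLR4 in the intestine does; TLR4 senses bacterial lipopolysaccharide. The Cre driver, the deleted exons, the strain, the sex and the stretch of small intestine are not given in the sources used here. Levels are in TPM, a share of transcripts scaled by gene length, whose total is the same in each library.

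Conjugating enzymes attach a water-soluble group to drugs, dietary compounds, bilirubin, steroids and bile acids, which are then exported. Ugt enzymes sit in the endoplasmic reticulum and use UDP-glucuronic acid, Sult enzymes are cytosolic and use the sulfate donor PAPS, and Gst enzymes use glutathione. In the gut they are made mainly by absorptive enterocytes, at the first tissue that food-borne compounds meet, and many respond to the receptors Nr1i2 (PXR), Nr1i3 (CAR) and Ahr and to the transcription factor Nfe2l2 (Nrf2).

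Tlr4 itself (chromosome 4, 66827584 to 66930284, GRCm38) stood at 1.29, 1.22 and 4.81 TPM in replicates 1 to 3 labelled TLR4ΔIEC, against 0.65, 0.57 and 0.70 TPM in the WT replicates. It was thus not lower in any library labelled TLR4ΔIEC, and its log2 fold change of 0.92 did not pass the test (SE 0.40, limma adjusted p = 0.243). The table holds no exon-level values, so the targeted gene does not check the labels, and each direction given here is that of the libraries as labelled. TLR4ΔIEC replicate 2 stood apart. It had 12221 genes that reached 1 TPM, where the remaining 5 libraries had 13197 to 13634, and its level of the ribosomal RNA gene Rn18s was 12836 TPM, where they had 3806 to 7032 TPM. Alpha-defensin genes took 18.4, 5.21 and 6.61% of the TPM in libraries labelled TLR4ΔIEC and 25.3 to 28.7% in WT, and since TPM share a fixed total, all other genes move with that share. The depth of the libraries cannot be recovered from TPM.

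The sequences of the Ugt1a locus are shown first because they decide how far its genes can be told apart. Each Ugt1a gene has its own first exon, spliced to exons 2 to 4 and the first part of exon 5, which all 9 share (the exon 2 part printed is chr1:88215044-88215073, plus strand, GRCm38). In the lines below, taken from the GENCODE M21 transcripts, lower case is the last 30 bases of the gene's own exon 1 and capitals are the first 30 bases of the shared exon 2. The exon 1 parts lie at chr1:88071649-88071678 for Ugt1a9, chr1:88095949-88095978 for Ugt1a7c, chr1:88139302-88139331 for Ugt1a6a and chr1:88212842-88212871 for Ugt1a1.
Ugt1a9: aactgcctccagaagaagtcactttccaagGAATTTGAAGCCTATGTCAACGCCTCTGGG
Ugt1a7c: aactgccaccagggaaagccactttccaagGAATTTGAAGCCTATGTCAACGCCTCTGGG
Ugt1a6a: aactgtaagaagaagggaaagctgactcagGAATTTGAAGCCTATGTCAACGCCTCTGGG
Ugt1a1: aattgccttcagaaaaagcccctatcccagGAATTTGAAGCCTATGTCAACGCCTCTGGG
The capitals are the same in the 4 lines, so that reads within exons 2 to 4 and the shared part of exon 5 name no single gene. The annotated Ugt1a7c exon 5 is longer, at 1876 bases against 871 or 878 in the others, and the Ugt1a6a exon 1 end is the same as that of Ugt1a6b. Counted over windows of 75 bases, 57.7% of the Ugt1a1 transcript and 59.4% of the Ugt1a9 transcript occur exactly in transcripts of another gene. For Ugt1a6a it is the whole transcript, because an annotated Ugt1a7c transcript runs through the Ugt1a6a exons, so that Ugt1a6a and Ugt1a7c are uncertain against each other. Elsewhere, the pi class pair Gstp1 and Gstp2 shares 57.7% and 68.2% of its windows with other genes, Gsta1 86.3%, Gsta5 36.2% and Gstm3 21.6%. By contrast Ugt2a3 shares 1.81% of its windows, all with Ugt2b34, and 35 of the 75 transcripts, among them Sult2b1, Mgst1, Gstm5 and Gstm7, share no window at all.

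Of the 75 genes, 37 averaged 1 TPM or more across the 6 libraries. These were tested with limma on log2(TPM + 1), with Benjamini-Hochberg adjustment over all 13458 genes that met this filter. A further 17 were above 0 TPM in some library but below that mean, and 21 were listed at 0 in all 6. One gene passed an adjusted p of 0.05: Ugt2a3, which fell in the libraries labelled TLR4ΔIEC. Over all genes the same test called 16, or 0.119%, with 0.0743% called lower and 0.0446% higher. Without adjustment, 6 of the 37 (16.2%) had a p under 0.05, against 21.2% of all genes: Ugt2a3, Ugt1a9, Gstp1, Mgst1, Sult2b1 and Gstm7.

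Ugt2a3 (ENSMUSG00000035780, chromosome 5, 87324972 to 87337195, minus strand, GRCm38) encodes an Ugt whose human counterpart is known to glucuronidate bile acids. It stood at 0.39, 0.86 and 1.33 TPM in libraries labelled TLR4ΔIEC, against 11.3, 18.3 and 11.3 TPM in WT. The groups were far apart, with the highest library labelled TLR4ΔIEC well below the lowest WT library. The means were 0.860 ± 0.470 TPM in TLR4ΔIEC and 13.6 ± 4.07 TPM in WT (SD, n = 3 each), a log2 fold change of −2.97 (SE 0.28, limma adjusted p = 0.0316). The fold change stayed between −3.15 and −2.75 whichever library was left out. It no longer passed when TLR4ΔIEC replicate 2 (adjusted p = 0.0650), TLR4ΔIEC replicate 3 (0.0511), WT replicate 2 (0.0928) or WT replicate 3 (0.172) was dropped, and across the alternatives tried the adjusted p spanned 0.0137 to 0.172. In whole tissue, fewer cells that make a transcript and less transcript per cell cannot be told apart.

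The other Ugt2 genes of the same chromosome 5 cluster did not pass the test. Ugt2b34 (chromosome 5, 86889767 to 86906937, minus strand) had by far the most Ugt2 transcript, at 170, 158 and 194 TPM in libraries labelled TLR4ΔIEC and 155, 135 and 167 TPM in WT. Its groups overlapped, with a log2 fold change of 0.19 (SE 0.15, adjusted p = 0.506). Ugt2b5 read 6.10, 9.24 and 9.57 TPM, against 6.39, 4.26 and 5.92 TPM in WT (log2 fold change 0.50, adjusted p = 0.254). Ugt2b36 read 2.47, 6.83 and 7.45 TPM, against 3.87, 3.30 and 5.53 TPM in WT. Ugt2b35 was the steadiest, at 5.46, 6.61 and 6.16 TPM in libraries labelled TLR4ΔIEC and 6.88, 6.69 and 6.19 TPM in WT. By mean level Ugt2a3 took the sixth place among Ugt2 genes in the libraries labelled TLR4ΔIEC and the second in WT. In TLR4ΔIEC it lay behind Ugt2b38, which was just under the filter and read 0.88 to 1.29 TPM there and 0.52 to 0.92 TPM in WT. Ugt2a1, known for the olfactory epithelium, and both Ugt3a genes were listed at 0 in all 6 libraries, and Ugt2a2, Ugt2b1 and Ugt2b37 did not exceed 0.07 TPM.

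**Figure D1:**
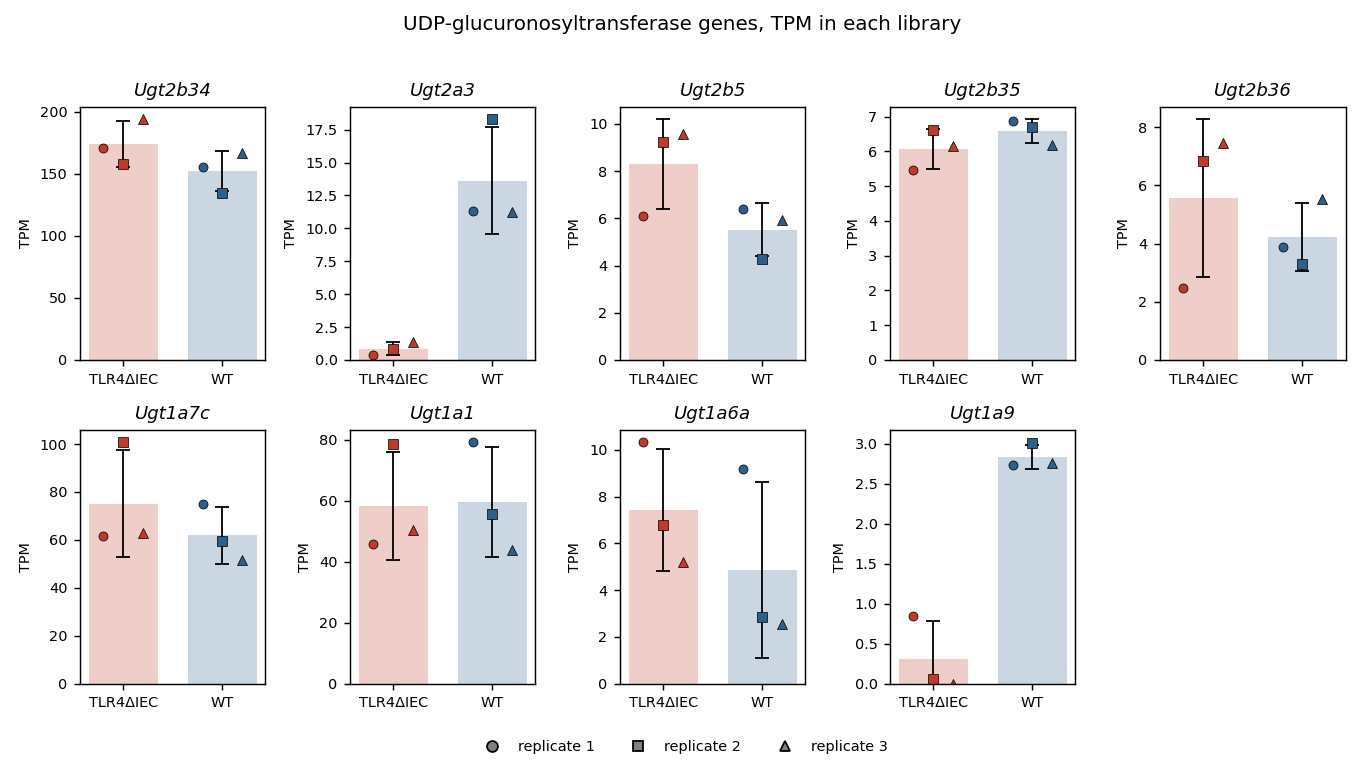
TPM of the Ugt2 (top row) and Ugt1a (bottom row) genes that averaged 1 TPM or more. Points are single libraries, bars the mean and whiskers the SD of 3 libraries, on axes that start at 0. In Ugt2a3 and Ugt1a9 the 3 libraries labelled TLR4ΔIEC lie below the 3 WT libraries, and in the other 7 genes the groups overlap.

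At the Ugt1a locus on chromosome 1, the abundant genes overlapped between genotypes and a rare one did not. Ugt1a7c stood at 61.7, 101 and 63.0 TPM in libraries labelled TLR4ΔIEC, against 74.8, 59.3 and 51.5 TPM in WT (log2 fold change 0.25, SE 0.24, adjusted p = 0.582). Ugt1a1, the enzyme that conjugates bilirubin, stood at 45.9, 78.6 and 50.3 TPM, against 79.2, 55.6 and 43.8 TPM in WT (log2 fold change −0.03, SE 0.28, adjusted p = 0.966). Both were highest in 1 library of each genotype, TLR4ΔIEC replicate 2 and WT replicate 1, and the spread between mice exceeded the difference between genotypes. Ugt1a6a, which conjugates phenols, read 10.3, 6.78 and 5.22 TPM, against 9.19, 2.83 and 2.56 TPM in WT (adjusted p = 0.429).

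Ugt1a9 (ENSMUSG00000090175, chromosome 1, 88070800 to 88218997, plus strand), whose human counterpart conjugates phenols such as propofol, read 0.85 and 0.06 TPM in TLR4ΔIEC replicates 1 and 2 and was listed at 0 in replicate 3, against 2.74, 3.01 and 2.76 TPM in WT. The groups did not overlap and the WT libraries were close together. The log2 fold change on the log2(TPM + 1) scale was −1.62 (SE 0.29), and the gene did not pass (limma adjusted p = 0.0913, unadjusted p = 0.000840). It passed without TLR4ΔIEC replicate 1 (adjusted p = 0.0267) and with array weights (0.0406), and its range over the alternatives was 0.0267 to 0.362. As a share of the summed Ugt1a TPM, Ugt1a9 held 0.716, 0.0319 and 0% in the libraries labelled TLR4ΔIEC and 1.64, 2.48 and 2.73% in WT. Ugt1a7c held 52.8 ± 0.802% in TLR4ΔIEC and 48.2 ± 3.13% in WT, and Ugt1a1 40.9 ± 1.98% and 45.5 ± 2.07% (SD, n = 3 each). These shares rest on how reads of the shared exons were divided among the genes. The remaining Ugt1a genes, Ugt1a2, Ugt1a5, Ugt1a6b, Ugt1a8 and Ugt1a10, stayed below the filter, and their highest single value was 1.39 TPM for Ugt1a8 in TLR4ΔIEC replicate 2.

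Among the 27 Sult genes, 5 were tested and none passed. An unadjusted limma p under 0.05 was reached by 1 (20.0%, against 21.2% of all genes). Sult2b1 (chromosome 7, 45729983 to 45784669, minus strand), which sulfates cholesterol and pregnenolone, had the most transcript, at 230, 314 and 246 TPM in libraries labelled TLR4ΔIEC, against 188, 200.4 and 182 TPM in WT. The groups did not overlap in these TPM. The means were 263 ± 44.6 TPM in TLR4ΔIEC and 190.2 ± 9.26 TPM in WT (SD, n = 3 each, log2 fold change 0.45, SE 0.16, limma adjusted p = 0.180). The log2 fold change was 0.13 both under quantile normalization and on reduced totals, that is TPM rescaled after dropping the genes of alpha-defensins, mitochondria and 18S-like RNA. The groups overlapped on reduced totals and under median-of-ratios scaling. Sult1b1, which acts on phenols and thyroid hormones, read 144, 170 and 232 TPM, against 141, 200 and 176 TPM in WT (log2 fold change 0.06). Sult1d1, a catecholamine sulfotransferase of mice, read 44.3, 55.4 and 98.5 TPM, against 55.5, 52.2 and 74.9 TPM in WT (log2 fold change 0.05). In both genes the groups overlapped widely, and both fold changes turned negative under median-of-ratios scaling, under quantile normalization and on reduced totals.

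The phenol sulfotransferase Sult1a1 was low in this tissue, at 2.15, 3.40 and 4.43 TPM in libraries labelled TLR4ΔIEC and 4.33, 3.72 and 3.87 TPM in WT. Sult1c2 read 1.97, 2.14 and 1.88 TPM, against 2.1, 0.67 and 1.02 TPM in WT. The estrogen sulfotransferase Sult1e1 reached 0.11 TPM in 1 library and was listed at 0 in the other 5. The hydroxysteroid and bile acid sulfotransferases of the Sult2a group, which are known from mouse liver, were at or near 0: of 12 listed, pseudogenes included, 11 were at 0 in all 6 libraries and Sult2a8 read 0.40 TPM in WT replicate 3 alone. Hepatocyte markers were likewise low, with the 6 of that list summing to 4.64 to 7.19 TPM in libraries labelled TLR4ΔIEC and 3.07 to 9.92 TPM in WT, and Alb at no more than 0.18 TPM.

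The cytosolic glutathione S-transferases were the most abundant family, and none of 20 tested passed. An unadjusted limma p under 0.05 was reached by 2 of them (10.0%, against 21.2% of all genes). Gstp1 (ENSMUSG00000060803, chromosome 19, 4035407 to 4037985, minus strand), the main pi class enzyme, stood at 832, 1262 and 704 TPM in libraries labelled TLR4ΔIEC, against 513, 548 and 449 TPM in WT. Every library labelled TLR4ΔIEC lay above every WT library. The means were 933 ± 292 TPM in TLR4ΔIEC and 503 ± 50.1 TPM in WT (SD, n = 3 each), with a log2 fold change of 0.85 (SE 0.24, limma adjusted p = 0.131), and over the alternatives it ran from 0.52 to 1.03. Its near copy Gstp2 read 21.1, 74.2 and 16 TPM, against 24.0, 31.2 and 34.9 TPM in WT, so the groups overlapped. Summed over Gstp1, Gstp2 and Gstp3, the pi class stood at 863, 1345 and 729 TPM in libraries labelled TLR4ΔIEC and at 547, 587 and 490 TPM in WT. The split of reads between Gstp1 and Gstp2 does not matter for this sum. Each of them shares windows with 2 genes and Gstp3 with none, so reads may still be split with a gene outside the sum. Gstp3 read 9.23 to 9.76 TPM in TLR4ΔIEC and 5.52 to 9.41 TPM in WT.

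In the alpha class, Gsta5, Gsta1 and Gsta4 varied more between mice than between genotypes. Gsta5 read 48.5, 228 and 69.3 TPM in libraries labelled TLR4ΔIEC, against 132, 87.9 and 68.3 TPM in WT (log2 fold change −0.01, SE 0.56). Gsta1 read 40.6, 130 and 44.9 TPM, against 76.6, 65.6 and 37.1 TPM in WT (log2 fold change 0.11, SE 0.47). Gsta4, which conjugates the lipid peroxidation product 4-hydroxynonenal, read 20.8, 51.4 and 35.1 TPM, against 46.0, 20.8 and 16.2 TPM in WT. All 3 were highest in TLR4ΔIEC replicate 2 and next in WT replicate 1. Gsta3, the mouse enzyme known for detoxifying aflatoxin epoxide, had another order, at 13.8, 7.02 and 5.39 TPM against 6.21, 4.06 and 3.89 TPM in WT (log2 fold change 0.70, adjusted p = 0.283). Without TLR4ΔIEC replicate 2 the log2 fold change of Gsta1 was −0.41.

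The mu class, a cluster on chromosome 3, lay lower, although no gene passed. Of 7 tested, 6 had negative log2 fold changes, as had 4295 of all 13458 genes. The class median was −0.36, beside 0.16 over all genes tested, and over the alternatives it ran from −0.68 to −0.14. Gstm3 read 7.08, 101 and 36.5 TPM in libraries labelled TLR4ΔIEC, a 14.2-fold range, against 96.0, 43.2 and 43.6 TPM in WT, and its log2 fold change of −0.88 (SE 0.85) turned to 0.10 without TLR4ΔIEC replicate 1. Gstm1 read 22.3, 32.3 and 39.9 TPM, against 66.9, 33.8 and 30.9 TPM in WT (log2 fold change −0.42, adjusted p = 0.519). Of the 7, 2 (28.6%) were lower without overlap, against 3.53% of all genes, and these 2 have no shared windows. Gstm7 read 1.47, 2.23 and 1.71 TPM in libraries labelled TLR4ΔIEC, against 4.50, 3.84 and 2.25 TPM in WT (log2 fold change −0.67, SE 0.26, adjusted p = 0.200). Gstm5 read 16.5, 13.5 and 13.1 TPM, against 16.7, 22.9 and 16.9 TPM in WT (log2 fold change −0.36, adjusted p = 0.295). The exception in sign was Gstm4, with a log2 fold change of 0.21, which was negative on reduced totals, as were all 7. WT replicate 1 held the highest level of Gstm1, Gstm2, Gstm6 and Gstm7, and without it the class median was −0.14.

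No gene of the other classes grouped as cytosolic passed. Gsto1, the omega class enzyme that reduces dehydroascorbate, was second to Gstp1, at 295, 465 and 411 TPM in libraries labelled TLR4ΔIEC and 339, 298 and 248 TPM in WT (log2 fold change 0.39, SE 0.22, adjusted p = 0.356). In the theta class, Gstt2 read 39.6, 40.3 and 38.9 TPM, against 36.9, 36.8 and 33.8 TPM in WT, so the groups did not overlap. Yet its log2 fold change was only 0.14 (SE 0.12, adjusted p = 0.533) and turned negative under each of the 3 other scalings. Under quantile normalization and on reduced totals, every library labelled TLR4ΔIEC lay below every WT library for Gstt2. Gstt3 read 22.6, 39.1 and 33.4 TPM, against 27.5, 20.5 and 20.1 TPM in WT (adjusted p = 0.319). Gstz1, an enzyme of tyrosine breakdown, and Gstk1, of mitochondria and peroxisomes, had log2 fold changes of −0.17 and 0.21. Gsta2, Gsto2 and Gstt4 stayed below the filter, and none of them exceeded 0.61 TPM.

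The microsomal enzymes, membrane proteins of which Mgst2 and Mgst3 also act on leukotrienes, were all at 168 TPM or more in every library. Mgst1 (chromosome 6, 138140316 to 138156755, plus strand) stood at 373, 416 and 367 TPM in libraries labelled TLR4ΔIEC, against 313, 283 and 261 TPM in WT, with no overlap (log2 fold change 0.43, SE 0.15, adjusted p = 0.165). On reduced totals its log2 fold change was 0.11, and the groups overlapped there and under median-of-ratios scaling. Mgst3 read 212, 418 and 319 TPM, against 276, 252 and 218 TPM in WT, and Mgst2 read 186, 276 and 246 TPM, against 168, 196 and 202 TPM in WT. Their log2 fold changes were 0.30 and 0.31, and neither passed (adjusted p = 0.546 and 0.388). On reduced totals, the median of the 3 log2 fold changes was −0.02 instead of 0.31.

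**Figure D2:**
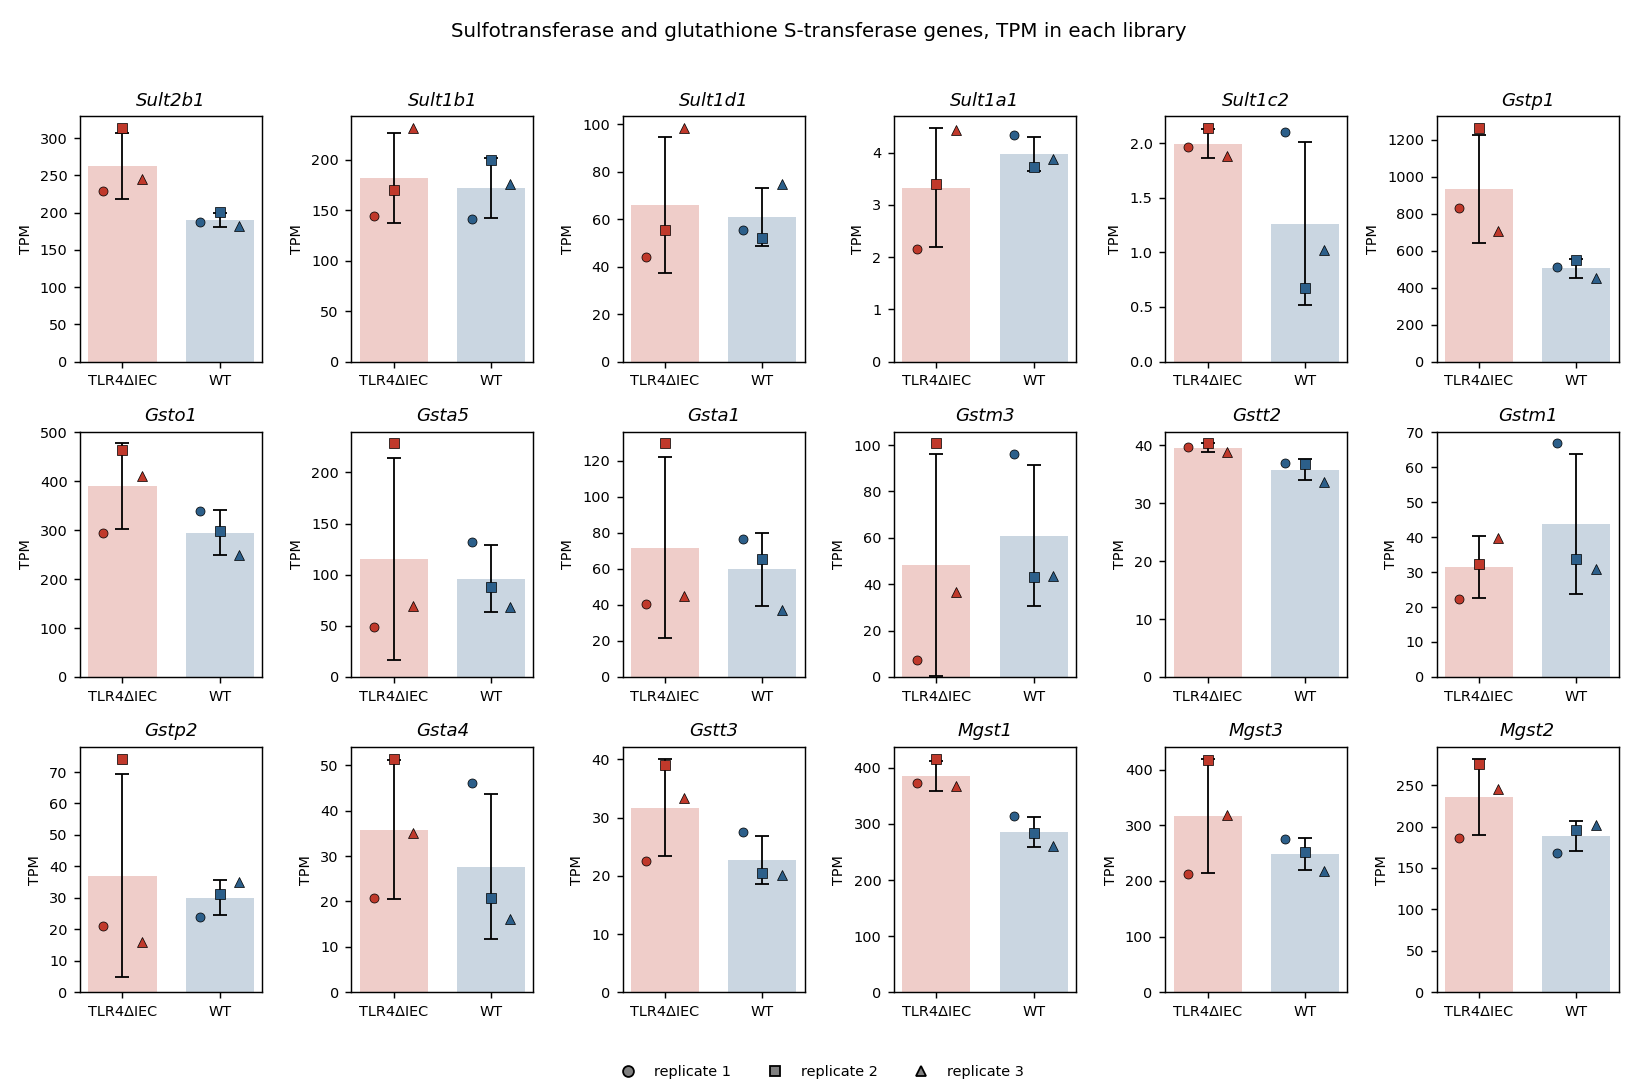
TPM of the sulfotransferase and glutathione S-transferase genes named by level (up to 5 Sult, 10 cytosolic Gst and 3 Mgst genes). Points are single libraries, bars the mean and whiskers the SD of 3 libraries, on axes that start at 0. Sult2b1, Gstp1, Gstt2 and Mgst1 show no overlap between genotypes, and Gsta5, Gsta1, Gstm3 and Gstp2 show 1 library labelled TLR4ΔIEC far above the other 2.

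In these TPM, the conjugation genes as a set moved about as all genes did by median and by sign. Their median log2 fold change was 0.19, against 0.16 over all 13458 genes, and 23 of 37 (62.2%) had a positive one, against 68.1%. Other scalings lowered both medians: to 0.04 for the conjugation genes and 0.03 for all genes under median-of-ratios scaling, to −0.11 and 0.02 under quantile normalization, and to −0.12 and −0.13 on reduced totals. In TPM as deposited, the groups did not overlap in 8 of 37 (21.6%), against 27.6% of all genes, which is near that background with both directions together. By direction the shares lay farther from the background, although the counts are small and no set test was made. On the higher side were Gstp1, Gstt2, Mgst1 and Sult2b1 (10.8%, against 24.1% of all genes). On the lower side were Ugt2a3, Ugt1a9, Gstm5 and Gstm7 (10.8%, against 3.53%). The counts changed with the scaling. On reduced totals 1 of 38 was higher and 10 of 38 were lower without overlap, beside 6.13% and 12.8% of all genes. Under median-of-ratios scaling 1 of 37 was higher and 5 were lower, beside 10.8% and 8.44% of all genes. Under quantile normalization 3 of 37 were higher and 5 were lower, beside 11.1% and 8.54%.

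**Figure D3:**
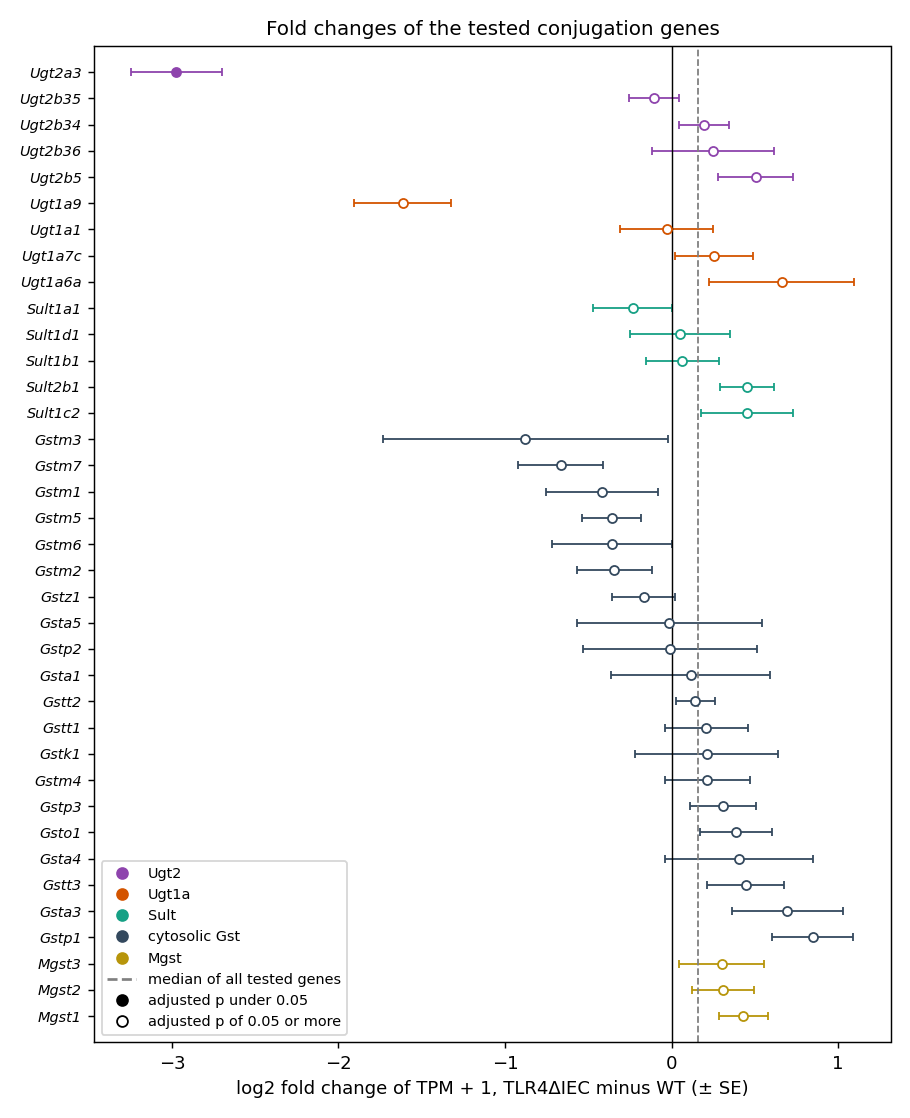
Log2 fold change of each of the 37 tested conjugation genes with its standard error, by family. The dashed line is the median of all tested genes, 0.16. Ugt2a3, at −2.97, is the one filled point, past an adjusted p of 0.05, and Ugt1a9 follows at −1.62, while all others lie between −0.88 and 0.85.

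Summed over each family, mean levels were higher in the libraries labelled TLR4ΔIEC, by log2 ratios of 0.10 for Ugt2 to 0.48 for cytosolic Gst, but the ratios of Ugt1a and Ugt2 turned negative under median-of-ratios scaling and those of Ugt1a, Ugt2 and Sult on reduced totals. The Ugt2 genes together held 196 ± 21.0 TPM in TLR4ΔIEC and 183 ± 14.3 TPM in WT, and the Ugt1a genes 142 ± 40.0 and 129.9 ± 33.8 TPM (SD, n = 3 each). Ugt2b34 alone averaged 174 and 152 TPM of the Ugt2 sums. The Sult genes held 517 ± 83.9 TPM in TLR4ΔIEC and 430 ± 34.0 TPM in WT, the cytosolic Gst genes 1861 ± 602 and 1301 ± 211 TPM, and the Mgst genes 938 ± 169 and 723 ± 39.0 TPM. Gstp1 alone averaged 933 and 503 TPM of the cytosolic Gst sums. In that family 11 of 20 tested genes had positive log2 fold changes and 9 negative ones. The sums of the Mgst genes did not overlap in these TPM, and all other sums did. All 75 genes together took 0.295, 0.458 and 0.343% of the TPM in libraries labelled TLR4ΔIEC and 0.301, 0.279 and 0.250% in WT. TLR4ΔIEC replicate 2 was the highest library for 15 of the 37 tested genes and the lowest for none. WT replicate 3 was the lowest for 15 and the highest for none, and TLR4ΔIEC replicate 1 was the lowest for 14.

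**Figure D4:**
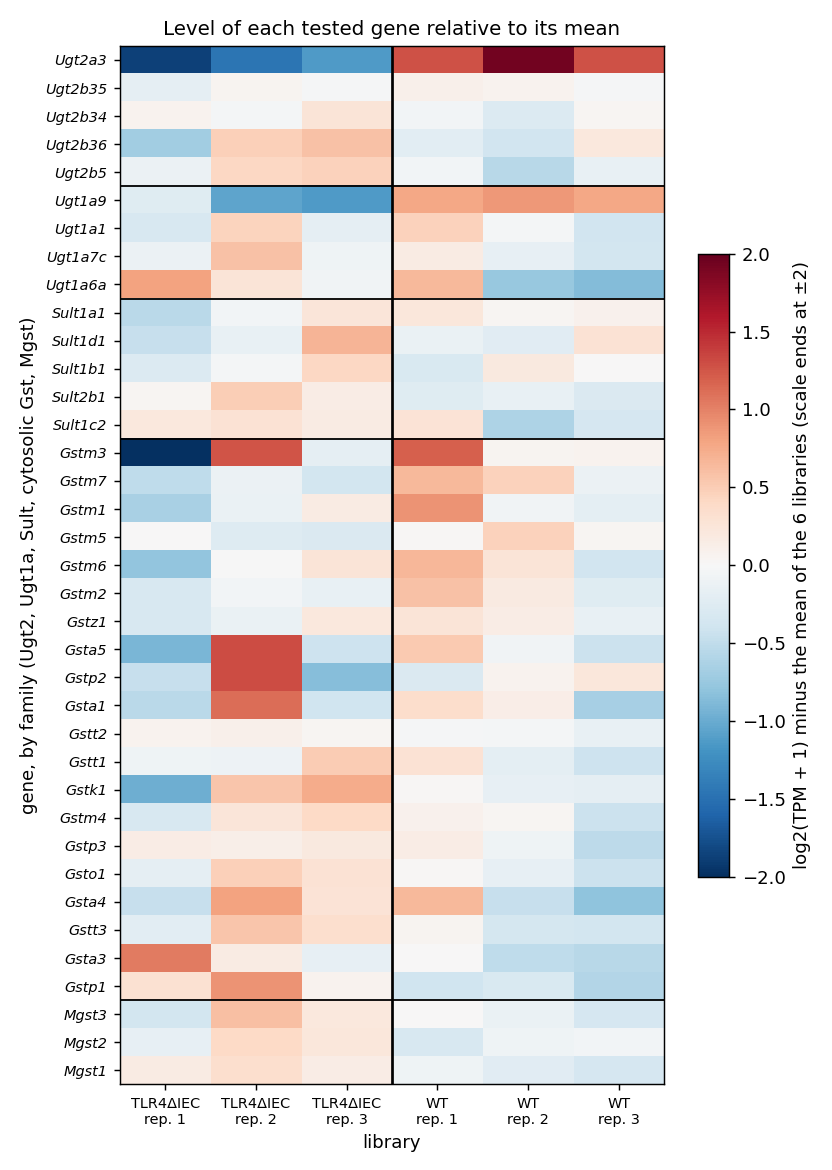
Level of each tested conjugation gene in each library, as log2(TPM + 1) minus the mean of the 6 libraries, with red above and blue below the mean. Libraries labelled TLR4ΔIEC are left of the black line and WT right of it. Ugt2a3 and Ugt1a9 separate the genotypes, whereas Gsta1, Gsta5 and Gstp2 stand out in TLR4ΔIEC replicate 2 and Gstm3 is highest there and in WT replicate 1.

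Of the genes that supply the cosubstrates none passed. Log2 fold changes were positive in 3 of 4, 8 of 9 and 12 of 14 tested genes of the lists for UDP-glucuronic acid, PAPS and glutathione, against 68.1% of all genes. Of 4 tested genes of UDP-glucuronic acid supply, 2 had an unadjusted limma p under 0.05, which 21.2% of all genes had: Slc35d1, which carries UDP-glucuronic acid into the endoplasmic reticulum, averaged 16.7 ± 3.58 TPM in TLR4ΔIEC and 9.36 ± 0.783 TPM in WT (adjusted p = 0.112), and Ugp2 50.7 ± 9.63 and 37.2 ± 3.87 TPM (adjusted p = 0.220). Ugdh, which makes UDP-glucuronic acid, averaged 92.6 ± 15.8 TPM in TLR4ΔIEC and 74.6 ± 1.09 TPM in WT. Of 9 genes of PAPS supply and sulfate transport, 3 were under that p: Papss1 and Papss2, the PAPS synthases, with log2 fold changes of 0.40 and 0.58, and Sumf1, a sulfatase activator, with 0.64 (adjusted p 0.101 to 0.227). The list of glutathione synthesis and breakdown had 14 tested genes and 6 under that p, again beside 21.2% of all genes. Gclm, a subunit of the rate-limiting glutathione synthesis enzyme, averaged 66.2 ± 15.3 TPM in TLR4ΔIEC and 40.6 ± 2.39 TPM in WT (adjusted p = 0.129). Gclc, of the same list, had a log2 fold change of only 0.04 (limma adjusted p = 0.907). The brush border peptidases Dpep1 and Anpep had log2 fold changes of 1.09 and 0.87 (adjusted p 0.0955 and 0.123). The medians of these 3 lists were 0.36, 0.33 and 0.34, against 0.16 for all genes. Values of the lists here and below were not recomputed under the other scalings. There the median of all genes was 0.03 (median-of-ratios), 0.02 (quantile) and −0.13 (reduced totals).

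Among 11 tested xenobiotic receptors and cofactors, none passed and 4 had an unadjusted limma p under 0.05, against 21.2% of all genes. Nr1i3, the receptor CAR, read 0.93, 1.89 and 2.07 TPM in libraries labelled TLR4ΔIEC, against 6.76, 12.2 and 5.49 TPM in WT, without overlap (log2 fold change −1.76, adjusted p = 0.0913). Nr1i2, the receptor PXR, went the other way in value, at 40.0, 60.6 and 54.0 TPM against 36.9, 34.6 and 26.5 TPM in WT (log2 fold change 0.64, adjusted p = 0.155). For the bile acid receptor Nr1h4 (FXR) the log2 fold change was 1.32 (adjusted p = 0.0940). Of 18 tested genes of the Nrf2 pathway, none passed and 10 had an unadjusted p under 0.05, against 21.2% of all genes, with a median of 0.43, against 0.16. The pentose phosphate enzymes Taldo1 and Tkt and the Nrf2 partner Mafk had log2 fold changes of 0.96, 0.63 and 0.75 (adjusted p 0.0935 to 0.116). Nfe2l2 itself and its classical target Nqo1, picked after their values were seen, had log2 fold changes of −0.10 and 0.12.

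Of 8 tested efflux transporters of conjugates, none passed and 2 had an unadjusted limma p under 0.05, near the 21.2% of all genes. Abcg2, an apical exporter of sulfates and other conjugates, averaged 180 ± 68.1 TPM in TLR4ΔIEC and 77.4 ± 19.6 TPM in WT (log2 fold change 1.16, adjusted p = 0.115). Abcc2 (MRP2), an apical exporter of glucuronides and glutathione conjugates, averaged 26.4 ± 2.38 TPM in TLR4ΔIEC and 34.6 ± 3.66 TPM in WT (log2 fold change −0.38, adjusted p = 0.197). Abcb1a, a drug exporter, had a log2 fold change of 0.72 with overlapping groups. Of 21 other conjugating and detoxifying enzymes, none passed and 1 had an unadjusted p under 0.05, fewer than the 21.2% of all genes, with a median of 0.06. Nat2, Nqo2 and Acsm3 had log2 fold changes of 0.34, 0.43 and 0.84.

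Markers of the position along the gut differed with the genotype labels as well, and their part in the levels above was not tested. Gata4, a factor that marks proximal gut and 1 of 11 epithelial factors tested, read 0.23, 1.28 and 2.20 TPM in libraries labelled TLR4ΔIEC, against 17.3, 31.4 and 17.0 TPM in WT (adjusted p = 0.0494), and Cdx1, from the same list, had a log2 fold change of 0.55 without passing. Of 9 tested proximal markers, 6 were lower without overlap, of which Gata4 and Lct fell, and 2 were higher without overlap, of which S100g rose and Slc40a1 did not pass (log2 fold change 1.51, adjusted p = 0.0913). Over all genes 3.53% were lower and 24.1% higher without overlap. The 11 listed proximal markers summed to 183 to 260 TPM in TLR4ΔIEC and 269.9 to 1100 TPM in WT. Of 12 ileal markers none passed with limma, 10 had an unadjusted p under 0.05, 9 were higher without overlap and 1, Ang4, was lower without overlap (log2 fold change −2.97), with a sum of 15552 to 41739 TPM in TLR4ΔIEC and 7913 to 13265 TPM in WT. Fabp1, a fatty acid binding protein of the proximal gut, read 8.50, 17.4 and 72.3 TPM, against 361, 797 and 115 TPM in WT, and the ileal Fabp6 9526, 34630 and 24710 TPM, against 2352, 5212 and 7321 TPM. Of 16 enterocyte markers, all above 0, 2 fell (Lct and Apoa4), 4 were lower without overlap, these included, and 6 were higher without overlap, the list summing to 21832 to 26793 TPM in TLR4ΔIEC and 18579 to 21115 TPM in WT. Paneth cell markers summed to 16474 to 61935 TPM in TLR4ΔIEC and 88316 to 100951 TPM in WT, and those of B and plasma cells to 1128 to 4297 and 8405 to 9553 TPM. The B and plasma cell list was split, with positive log2 fold changes in 4 of 8 genes and negative ones in 4. Those 4 were lower without overlap, 0 were higher without overlap, and none of the 8 passed.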

How the data were processed

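Total RNA from small intestine was sequenced in 6 libraries, 3 per genotype, grouped by sample title. Tools listed in the submitters' processing notes are fastp, HISAT and RSEM, with build GRCm38.p5 and no versions. The deposited values are TPM per gene, per the file headers, and the authors' group means were not used. No source used here states the strand setting. Read totals cannot be recovered from TPM, and depth and the precision it sets are unknown.

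The 13458 genes that averaged 1 TPM or more entered a linear model of log2(TPM + 1) in limma 3.58.1 (R 4.3.3, lmFit, eBayes with trend, two-sided, Benjamini-Hochberg at 0.05, genotype as the single term), after the code was tested on simulated data. Fold changes are TLR4ΔIEC minus WT and understate those of low genes. The labels do not say that replicate numbers mark shared animals. The p-values set each difference between genotypes against the spread between these samples within a genotype, which limma moderates over all tested genes. The members and lists were chosen with earlier results of these data known. Named genes were those past the threshold, the members of highest mean per family (5, or 10 for cytosolic Gst), members without overlap that changed at least 2-fold, and 3 genes per pathway list by p. In marker lists the rule takes the 2 of highest mean. Other genes named singly were chosen after their values were seen. Coordinates and transcripts are GENCODE M21 (GRCm38). Transcript windows replaced the planned protein identity. The promoter motif search and some transcription factor values are not reported here.

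Lists not described with the results had these ranges of summed TPM in TLR4ΔIEC and in WT: colon 3175 to 4173 and 1681 to 1747, crypt and cell cycle 258 to 456 and 434 to 491, goblet 18327 to 27153 and 12233 to 13579, enteroendocrine 530.0 to 622 and 313 to 589, tuft 14.7 to 44.7 and 19.6 to 27.1, T and NK 72.5 to 140 and 77.4 to 298, macrophage and dendritic 92.8 to 276 and 201 to 228, mast 9.26 to 14.5 and 11.8 to 149, fibroblast 52.6 to 253 and 134 to 218, smooth muscle 186 to 673 and 267 to 712, endothelium 24.4 to 44.1 and 35.8 to 50.5, neuron and glia 4.43 to 10.5 and 6.93 to 13.4, red blood cell 52.0 to 288 and 179 to 200.2, pancreatic acinar 6.27 to 14.5 and 8.28 to 12.0, adipocyte 22.9 to 70.3 and 37.1 to 46.8.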

Additional observations from a re-analysis of the deposited data

How the results depend on the processing

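Under the 16 alternatives Ugt2a3 kept its direction in each (log2 fold change −3.93 to −1.65), was called in 10 and lost its call in 6: with no filter (adjusted p = 0.0978), with the replicate block (0.0579) and without TLR4ΔIEC replicate 2, TLR4ΔIEC replicate 3, WT replicate 2 or WT replicate 3. The number of conjugation genes called was 1, 0 with no filter (where 6 were under an unadjusted limma p of 0.05), 2 with array weights, where Ugt1a9 joined, and 0 with the replicate block (7 under that unadjusted p), and it ran from 0 to 2 with each library left out. Over all genes 16 were called, against 0 with no filter (3377 at an unadjusted p under 0.05) and 7 at a mean of at least 5 TPM. With array weights 136 were called, and 1 with the replicate block. Calls over all genes ran from 0 to 367 with each library left out. The 367 arose without TLR4ΔIEC replicate 1. The 0 arose without TLR4ΔIEC replicate 2 or WT replicate 2, where 2651 and 1681 genes had an unadjusted p under 0.05. Conjugation genes whose groups do not overlap numbered 8 of 37, beside 3712 of all 13458 genes, and 6 to 11 under the other scalings and filters. The 6 arose under median-of-ratios scaling (of 37, beside 2584 of 13421) and at a mean of at least 5 TPM (of 30, beside 3140 of 9028). The 11 of 38 arose on reduced totals, beside 2663 of 14095. With each library left out they numbered 8 to 16 of 37, fewer samples making overlap rarer. The 16 arose without TLR4ΔIEC replicate 1 (beside 6186 of 13379) and without WT replicate 1 (beside 5076 of 13420). Their median log2 fold change of 0.19 turned to −0.11 under quantile normalization and −0.12 on reduced totals (TPM rescaled after dropping the genes of alpha-defensins, mitochondria and 18S-like RNA), and was 0.07 to 0.31 with each library left out. The log2 ratio of summed Ugt1a TPM, 0.12, turned to −0.026 under median-of-ratios scaling and −0.20 on reduced totals, where that of cytosolic Gst, 0.48, was 0.16. That of Ugt2, 0.10, turned to −0.053 under median-of-ratios scaling and −0.23 on reduced totals, where that of Sult, 0.26, turned to −0.067 and that of Mgst, 0.36, to 0.036. The cause was not tested. Deviations from the genotype mean correlated at −0.037, 0.035 and 0.118 between same-numbered samples, and at −0.154 to 0.106 between the others. With so few samples these values do not decide whether the numbers mark pairs. Levels near the filter, such as Ugt1a9, are limited by an unknown depth.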
